A study of Mus musculus with 143 samples.

Results

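The 4 probes RTS0065961, RTS0068591, RTS0071061 and RTS0068370 form a set read out from masked areas of aged mouse brain. They were chosen by measured values: their counts under the IBA1 mask of the fimbria, set against SYTO83 area of the same tract, ranked 1, 2, 3 and 5 by p among the probes higher there; the probe at place 4 is not in the set. They are 4 of the 20175 probes of the GeoMx mouse Whole Transcriptome Atlas, and a probe is named here by its readout code. No gene name and no sequence stands beside these codes in the files and tables used here, so no gene or function is given to them, and any of them may be a negative control probe. The name of the set therefore describes a mask and not a transcript: no microglial marker could be set beside it.

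The brains came from 5 female C57BL/6 mice, N101, N108, N110, N111 and N112, all 28 months old; no young or treated animals are among the samples analysed here, so every group below is aged tissue. Hemispheres were fixed in 4% paraformaldehyde for 24 hours, embedded in paraffin and cut at 5 µm. Each segment is an area of cortex, fimbria or hippocampus illuminated under 1 of 4 masks: IBA1, Galectin-3, both proteins (the double mask), or SYTO83, a nuclear dye. Whether a single-protein mask leaves out area positive for both is not stated in the labels. A mask outlines stained area, which can hold parts of several cell types. A lower share of counts in a segment can therefore come from fewer cells of a type or from less RNA per cell, which cannot be told apart.

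IBA1 is a calcium-binding protein of microglia and other macrophages, the resident phagocytes of the brain, and is the usual stain for outlining them. Galectin-3 is a sugar-binding lectin that microglia make when they clear debris, for example myelin in ageing white matter. The fimbria is a myelinated tract carrying axons of the hippocampus, so its IBA1 area samples microglia among myelin, while hippocampus and cortex are mainly grey matter. In the GeoMx assay a probe hybridizes to RNA in the section, and ultraviolet light frees its tag from the masked area for sequencing. A probe's count thus holds RNA-bound probe together with probe that stuck elsewhere.

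A segment was used with at least 1000 counts and a sequencing saturation of at least 50%, which 122 of 143 segments met. These held 1699 to 196736 deduplicated counts, with a median of 19510, and 1.53% to 95.5% of their reads aligned to probe tags. Values below are shares of all counts in a sum over the segments of 1 mouse, region and mask, given per 10000 counts. If every probe took an even share, each would hold 0.496 per 10000. Library names place the segments on 2 plates, A and B. Mice N101 and N108 were on A alone, N112 on B alone, and N110 and N111 on both.

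The plate moved with the level of the 4 probes and is described first for that reason. Together they held 12.6 per 10000 (exact 95% interval 11.6 to 13.7) in fimbria IBA1 segments of plate A and 5.74 (4.60 to 7.08) in those of plate B. In fimbria SYTO83 segments the levels were 6.92 (5.96 to 7.98) on plate A and 3.16 (2.39 to 4.10) on plate B. Hippocampus IBA1 segments held 8.22 (7.51 to 8.99) and 4.89 (4.36 to 5.48) in the same order, and hippocampus SYTO83 segments 7.57 (5.75 to 9.79) and 3.71 (2.92 to 4.65). The mice on both plates showed the same direction. In 8 of 9 pairs of sums from the same mouse, region and mask, the 4 probes together held a higher share on plate A. The exception was the double-masked fimbria of N111, where the plate A segment had 1699 counts.

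Single probes followed that pattern to different extents. In fimbria IBA1 segments of N110 and N111, RTS0068370 held 2.44 per 10000 on plate A and 0.565 on plate B, RTS0071061 held 2.07 and 0.726, and RTS0065961 held 5.49 and 2.42. For RTS0068591 the 2 plates were closer, at 2.56 and 2.10. Across the other 862 probes tested in the IBA1 and SYTO83 sums, the median ratio of plate A to plate B in these segments was 0.952. The ratio of RTS0068370, 4.13 with 0.5 added to each count, lay above 99.5% of those probes, and that of RTS0068591, 1.23, above 70.2%. Within a plate the IBA1 to SYTO83 gap of the fimbria was uneven between mice. In N110 the 4 probes held 15.3 per 10000 under IBA1 (41 counts) and 12 under SYTO83 (40 counts) on plate A, and 3.57 (8 counts) and 3.37 (26 counts) on plate B. In N111 they held 11.2 and 5.29 on plate A, and 6.31 and 2.95 on plate B. What the plate contributes to the levels was not tested.

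In the fimbria IBA1 sums, RTS0065961 was the most abundant of the 4. It held 5.34, 4.38, 3.46, 3.70 and 2.54 per 10000 in N101, N108, N110, N111 and N112, against 3.74, 1.36, 2.81, 0.959 and 0.346 in SYTO83 sums of the same mice. Each mouse was higher under IBA1, but the groups overlapped, since SYTO83 area of N101 exceeded IBA1 area of N110, N111 and N112. RTS0068591 held 3.20, 2.68, 3.05, 2.04 and 1.45 under IBA1 and 2.08, 1.47, 0.815, 1.17 and 1.73 under SYTO83, in the same order. It was lower under IBA1 in N112 alone. RTS0071061 held 2.87, 0.848, 1.02, 1.34 and 0.725 under IBA1 and 1.08, 0.419, 1.45, 0.745 and 0.346 under SYTO83. Here N101 stood far above the other mice, and N110 was higher under SYTO83. RTS0068370 held 2.08, 1.13, 2.44, 0.957 and 0.725 under IBA1 and 1.41, 0.524, 0.906, 0.638 and 0.692 under SYTO83. It was higher under IBA1 in every mouse, by little in N112.

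These values chose the probes, so their differences are a description and carry no test. On the log2 scale after TMM scaling (a trimmed-mean correction of library size) the IBA1 sums exceeded the SYTO83 sums by 1.44 for RTS0065961, 1.30 for RTS0068591, 1.33 for RTS0071061 and 1.29 for RTS0068370. In that contrast 21 of 866 probes tested (2.42%) were called higher, and the 4 took places 3, 9, 8 and 11 among them by size of the change and 1, 2, 4 and 6 by abundance. Just outside the set, the next probe below RTS0068370 differed by 1.27, and the largest change of any other probe was 1.53. Scaled by total counts instead, the 4 changes were 1.03, 0.86, 0.84 and 0.83, and this scaling shifted the median over the 866 probes from 0.00 to -0.45. Without mouse N101 the change of RTS0071061 was 0.74 and those of the others 1.58, 1.29 and 1.23.

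Mouse N101 and a single segment carried much of the count. The deepest fimbria IBA1 segment, from N101, held 192937 counts, which is 31.8% of that group, and it held 35.3%, 37.7%, 43.8% and 36% of the counts of RTS0065961, RTS0068591, RTS0071061 and RTS0068370. With this segment left out, the pooled shares of the group were 4.29, 2.51, 1.64 and 1.54 per 10000, beside 4.53, 2.75, 1.99 and 1.65 with it. Among the 17 fimbria IBA1 segments, 16 held at least 1 count of RTS0065961, of RTS0068591 and of RTS0068370, and 13 held 1 of RTS0071061. By area, IBA1 exceeded the SYTO83 segment of the same area in 10, 9, 7 and 10 of 13 fimbria areas for the 4 probes in the order above.

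All 4 were among the more abundant probes of the panel in this group. By pooled share in fimbria IBA1 area they ranked 6, 10, 19 and 27 of 20175, at 9.13, 5.55, 4.02 and 3.32 times an even share. High ranks were not particular to that mask: they were 7, 18, 45 and 26 in double-masked fimbria and 9, 22, 32 and 53 in cortex IBA1 area. In hippocampus IBA1 area the ranks were 12, 41, 94 and 190, in hippocampus SYTO83 area 88, 68, 428 and 2511, and in cortex SYTO83 area 31, 721, 4020 and 395. In fimbria SYTO83 area they ranked 72, 222, 1009 and 1093. The joint share of the remaining tested probes moved the other way. The other 862 tested probes together held 9.16% ± 2.45 of counts (SD, n = 5 mice) in fimbria IBA1 sums and 13% ± 1.98 in fimbria SYTO83 sums. Over the 17 fimbria IBA1 segments, the summed share of the 4 and that of the 862 had a Spearman rho of -0.87 and a Pearson r of -0.74. Over the 16 fimbria SYTO83 segments these were -0.72 and -0.57, and over the 18 double-masked fimbria segments -0.60 and -0.51. Over 16 hippocampus IBA1 segments they were -0.32 and -0.28, over 14 hippocampus SYTO83 segments -0.26 and -0.39, and over 13 Galectin-3 fimbria segments 0.04 and 0.07. Segments of a mouse share an animal and a plate, and both shares have the same total as denominator, so these are descriptions. The part of that composition in the IBA1 level of the 4 was not tested.

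Double-masked and Galectin-3 area of the fimbria did not enter the contrast that chose the probes, and the 2 masks were compared to ask how far the level follows Galectin-3. RTS0065961 held 4.67, 4.66, 4.32, 2.33 and 4.43 per 10000 in double-masked sums of N101, N108, N110, N111 and N112, and 6.17, 2.67, 2.37 and 4.25 in Galectin-3 sums of the first 4 mice. The groups overlapped, with N111 low under the double mask. RTS0068591 held 2.65, 2.17, 2.3, 2.91 and 0 under the double mask and 2.37, 3.56, 2.37 and 1.28 under Galectin-3. The 0 in N112 stands in a sum of 9039 counts, which allows up to 3.32 per 10000. RTS0068370 held 2.65, 1.77, 1.37, 0.873 and 3.32, then 0.949, 1.78, 3.32 and 0.425, with overlap in both directions. Its 3.32 in N112 rests on 3 counts.

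None of the 3 members tested differed between these masks in edgeR's quasi-likelihood test. Galectin-3 minus double-masked sums gave log2 differences of -0.06 for RTS0065961 (95% interval -0.91 to 0.80), 0.18 for RTS0068591 (-0.72 to 1.09) and -0.07 for RTS0068370 (-1.04 to 0.91), each with an edgeR adjusted p of at least 0.971. The intervals hold changes close to a doubling either way, and in segments with at least 75% aligned reads the difference of RTS0068370 was -2.03 (edgeR adjusted p = 0.306). Over all probes in that comparison, 5 of 237 (2.11%) were called higher and 1 was called lower. An unadjusted p under 0.05 was reached by 20 of them, and the median difference was -0.17. RTS0071061 did not pass the count filter of this fit. It held 2.06, 1.41, 1.01, 1.45 and 1.11 under the double mask and 0.949, 0.593, 0 and 1.28 under Galectin-3, lower in 4 of 4 mice. The 0 in N110 allows up to 1.42, above its 1.01 under the double mask, and N111 had 3 counts against 5. How many other probes were lower in every mouse was not counted. The Galectin-3 value rests on 7 of 99399 counts, and the ratio of the pooled shares was 0.455 (exact interval of counting 0.178 to 0.969).

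The hippocampus asks whether the IBA1 mask carries the same probes outside the tract, in segments that did not choose them. RTS0065961 held 3.49, 3.49, 2.28, 1.73 and 2.13 per 10000 in IBA1 sums of N101, N108, N110, N111 and N112, and 3.48, 1.85, 0.605, 1.27 and 0.637 in SYTO83 sums. The share was higher under IBA1 in 5 of 5 mice, in N101 by a margin of 0.00828. RTS0068591 held 1.86, 1.94, 1.44, 1.06 and 2.98, against 1.99, 3.08, 1.90, 0.846 and 0.637. It was lower under IBA1 in N101, N108 and N110, and its higher values in N112 rest on 7 counts against 1. RTS0071061 held 1.27, 1.86, 1.07, 1.0 and 0.852, against 2.15, 0, 0.777, 0.705 and 0, with N101 in the opposite direction to the rest. The 2 SYTO83 sums at 0 allow up to 1.85 (N108) and 1.91 (N112) per 10000, above the IBA1 values of RTS0071061 in N112 and close to that in N108. RTS0068370 held 1.04, 1.09, 1.07, 0.837 and 2.13, against 0.497, 0.617, 0.691, 0.705 and 1.27, higher under IBA1 in each mouse.

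No member was called in the hippocampus. RTS0071061 and RTS0068370 do not pass the count filter when hippocampus sums are fitted alone, nor do they in the cortex, so they were tested through a filter shared with the fimbria sums that chose them. The log2 differences were 0.95 for RTS0065961 (SE 0.34, edgeR adjusted p = 0.56), 0.13 for RTS0068591 (SE 0.32, adjusted p = 0.999), 0.46 for RTS0071061 (SE 0.36, adjusted p = 0.999) and 0.78 for RTS0068370 (SE 0.39, adjusted p = 0.976). Their median was 0.62, beside 0.04 for all tested probes. Of 866 probes, 0 (0.0%) were called higher by edgeR, 42 had an unadjusted p under 0.05 in either direction, and DESeq2 called 0. After scaling, RTS0068370 was higher in every mouse, as were 45 of 866 probes (5.2%), while RTS0065961 was higher in 4 of 5. As shares, the mean differences per 10000 were 1.06 ± 0.771 (SD, n = 5 mice) for RTS0065961 and 0.477 ± 0.262 for RTS0068370, each with an exact two-sided sign-flip permutation p of 0.063, the smallest that 5 mice allow. For RTS0068591 and RTS0071061 the differences were 0.165 ± 1.32 and 0.485 ± 0.999, with exact permutation p-values of 0.875 and 0.375 over 5 mice. These 4 p-values are unadjusted. Scaled by total counts, the difference of RTS0068591 was -0.01. RTS0065961 differed by 0.47 on plate A alone and by 1.41 on plate B alone (edgeR adjusted p = 0.991 and 0.325).

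The hippocampus sums mix plates unevenly: all SYTO83 segments of N110, and both masks of N111, were on plate B, while 2 of 7 IBA1 segments of N110 were on plate A. In the plate A segments of N110 the 4 probes together held 9.96 per 10000 under IBA1, and in its plate B segments 4.82, beside 3.97 in its SYTO83 segments. Left to plate B, the gap in N110 was thus smaller than in its pooled sums. The other tested probes held 8.28% ± 0.884 of counts under IBA1 and 10.3% ± 2.16 under SYTO83 (SD, n = 5 mice each). IBA1 exceeded SYTO83 in 8, 6, 8 and 8 of 12 hippocampus areas holding both masks.

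The cortex, all on plate A, gave the same question in 4 mice with IBA1 sums and 3 with SYTO83 sums. RTS0071061 held 1.26, 1.42, 2.01 and 1.73 per 10000 under IBA1 in N101, N108, N110 and N111, and 0.565, 0.837 and 0.607 under SYTO83 in N101, N108 and N111. All IBA1 values exceeded all SYTO83 values, but the SYTO83 values rest on 5, 3 and 4 counts. The exact interval of N108 under SYTO83, 0.173 to 2.45, spans every IBA1 value. How many of the other probes separate in this way was not counted. RTS0068591 held 1.88, 0.709, 1.85 and 2.60 against 0.678, 0.558 and 1.67, higher in 3 of 3 mice with the groups overlapping. RTS0065961 held 3.45, 2.84, 2.18 and 3.03 against 2.83, 3.35 and 3.34, and was lower under IBA1 in 2 of 3 mice. RTS0068370 held 1.10, 0, 2.68 and 1.30 against 1.36, 1.67 and 0.607, lower in 2 of 3, and its 0 in N108 allows up to 1.06.

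Neither of the first pair passed the threshold. RTS0071061 was higher by 1.83 log2 units (SE 0.50) with an edgeR adjusted p of 0.0765, on 36 counts against 12, and RTS0068591 by 1.38 (SE 0.45) with an edgeR adjusted p of 0.135. RTS0065961 differed by 0.35 (SE 0.38, edgeR adjusted p = 0.754) and RTS0068370 by 0.63 (SE 0.46, edgeR adjusted p = 0.595). Across all probes, 1 of 866 (0.115%) was called higher, and 134 (15.5%) were higher in every mouse with both sums after scaling, as were RTS0071061 and RTS0068591. The median was 1.01 for the 4 and -0.04 for all tested probes. RTS0071061 and RTS0068370 entered it only through the filter shared with the fimbria sums that chose them, so it is a description. RTS0065961 reversed to -0.06 when scaled by total counts, a setting that moved the median of all probes to -0.45. RTS0071061 was called, at 2.04 (edgeR adjusted p = 0.0187), with the aligned share of reads as a covariate, and RTS0068591, at 1.68 (edgeR adjusted p = 0.00357), in a fit of the cortex sums alone. The other tested probes held 7.94% ± 0.486 of counts in IBA1 sums (SD, n = 4 mice) and 11.3% ± 1.11 in SYTO83 sums (SD, n = 3 mice).

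Double-masked area was compared between regions to ask whether Galectin-3 positive microglial area of white matter and of the hippocampus differ in these probes. In the hippocampus RTS0065961 held 0, 1.87 and 1.21 per 10000 in N101, N108 and N110, RTS0068591 held 0, 1.41 and 0.907, RTS0071061 held 0, 0.469 and 0.604, and RTS0068370 held 0, 0 and 0.604. Each probe lay below its fimbria value in all 3 mice, a direction that 65 of 237 tested probes (27.4%) had after scaling. The 4 probes were read from the same sums, so they do not repeat each other. The hippocampus sums are small: over 60600 counts they held 8, 6, 3 and 2 counts of the 4 probes, and the N101 sum, with 0 of each, had 6165 counts, which allows up to 4.87 per 10000, more than the fimbria of N101 held of any of the 4. The 0 of RTS0068370 in N108 allows up to 1.41, below the 1.77 of its fimbria, but the exact intervals, 0 to 1.73 and 1.31 to 2.34, overlap.

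Fimbria exceeded hippocampus by 3.08 log2 units for RTS0068370 (SE 0.86, edgeR adjusted p = 0.0386) and by 2.13 for RTS0065961 (SE 0.61, edgeR adjusted p = 0.0392). Both passed the threshold in a fit whose count filter was shared with other groups. For RTS0068591 the difference of 1.72 (SE 0.66, edgeR adjusted p = 0.238) did not pass, and RTS0071061 did not pass the count filter, with a pooled ratio of 3.13 (exact interval of counting 1.04 to 15.4). RTS0068370 rests on 2 hippocampus counts. Neither RTS0068370 nor RTS0068591 passes the count filter when these sums are fitted alone. Both were tested only through a filter shared with other groups, among them the fimbria IBA1 sums that chose them. Fitted alone, these sums gave RTS0065961 a difference of 1.74 (edgeR adjusted p = 0.187), which was not called. The pooled ratio of RTS0068370, 5.96, has an exact interval of counting from 1.62 to 49.7. In this comparison 4 of 237 probes (1.69%) were called higher, and 65 (27.4%) were higher in every mouse with both sums, as were the 3 members tested. The median difference was 0.22 for all tested probes and 2.13 for those 3, of which RTS0065961 alone passes the filter without the other groups. No member was called without N101, N108, N110 or N112, by DESeq2, scaled by total counts (median of all probes -0.25), or without the mouse block. For RTS0065961 and RTS0068370 in that order, the differences were 1.44 and 2.24 without N101, 2.59 and 2.65 without N108, 2.32 and 7.47 without N110, and 2.27 and 3.15 without N112. By DESeq2 they were 2.11 and 3.22, with total counts 1.66 and 2.63, and without the block 2.01 and 2.91. On plate A alone both were called, RTS0065961 at 2.38 log2 units (edgeR adjusted p = 0.0304) and RTS0068370 at 4.13 (edgeR adjusted p = 0.00245). The double-masked hippocampus segments of plate A held 1 count of RTS0068370 in 44509. The 7.47 without N110 was fitted to hippocampus sums of N101 and N108, each with 0 counts of RTS0068370. The median share of aligned reads was 74.5% in fimbria and 21.3% in hippocampus segments of this mask, and double-masked fimbria segments under 25% aligned held 4.61 per 10000 of the 4 probes together (exact interval 2.11 to 8.76) against 10.8 (9.94 to 11.8) in those of 75% or more. Double-masked hippocampus segments held 1.83 (0.595 to 4.27) and 4.30 (1.58 to 9.35) in the same bins. Both were lower than the fimbria, with intervals that overlap in the first bin. The 4.30 comes from 1 segment of N108 with 6 counts of the 4 probes, beside 9 fimbria segments of 4 mice. Galectin-3 fimbria segments held 8.93 and 8.62 in these bins. With the aligned share as a covariate RTS0065961 differed by 2.06 (edgeR adjusted p = 0.0945) and RTS0068370 by 2.86 (edgeR adjusted p = 0.125).

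Across all 9 groups with sums in at least 3 mice, the order of levels was loose. Cortex sums are all from plate A, while fimbria and hippocampus sums mix the plates, so the place of the cortex cannot be told apart from plate. RTS0065961 ran from 4.08 ± 0.991 (SD, n = 5 mice) in double-masked fimbria through 3.88 ± 1.05 in fimbria IBA1, 3.87 ± 1.74 (n = 4) in fimbria Galectin-3, 3.17 ± 0.299 (n = 3) in cortex SYTO83, 2.88 ± 0.530 (n = 4) in cortex IBA1, 2.63 ± 0.815 in hippocampus IBA1, 1.84 ± 1.40 in fimbria SYTO83 and 1.57 ± 1.18 in hippocampus SYTO83 to 1.03 ± 0.95 (n = 3) in double-masked hippocampus. No neighbours in that order differed by more than both SDs. RTS0068591 ran from 2.48 ± 0.730 in fimbria IBA1 to 0.968 ± 0.609 in cortex SYTO83 and 0.771 ± 0.713 in double-masked hippocampus, again with no such gap. RTS0071061 had its highest mean over mice in cortex IBA1, at 1.60 ± 0.336, and held 0.704 ± 0.546 in fimbria Galectin-3 and 1.36 ± 0.874 in fimbria IBA1 sums. Pooled over segments, RTS0071061 was instead higher in fimbria IBA1, at 1.99 (2.41 on plate A alone), than in cortex IBA1, at 1.63. RTS0068370 ran from 2.0 ± 0.986 in double-masked fimbria to 0.201 ± 0.349 in double-masked hippocampus. The 1 gap larger than both SDs in any order was that between its hippocampus SYTO83 level, 0.757 ± 0.301, and the last. In the cortex, double-masked sums stayed under the minimum of 5000 counts and held 0, 2, 1 and 1 counts of the 4 probes in 12113.

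The proportions of the 4 probes among themselves were close in IBA1 area of the 3 regions and in fimbria SYTO83 area. RTS0065961 supplied 41.5% of their joint counts in fimbria IBA1, 41.1% in hippocampus IBA1 and 36.6% in cortex IBA1 area, and RTS0068591 supplied 25.2%, 24.4% and 24.6%. RTS0071061 gave 18.3%, 18.4% and 20.6%, and RTS0068370 gave 15.1%, 16.1% and 18.3%. In fimbria SYTO83 area, in the order of the opening, the proportions were 40.6%, 26.2%, 16.8% and 16.4%. In cortex SYTO83 area they were 52.7%, 17%, 10.7% and 19.6%, and in hippocampus SYTO83 area 30.8%, 34.6%, 20.3% and 14.3%. Single sums departed from these: cortex IBA1 of N108, with 14 counts of the 4, had 57.1%, 14.3%, 28.6% and 0%, and hippocampus IBA1 of N112, with 19 counts, had 26.3%, 36.8%, 10.5% and 26.3%. Over the 17 hippocampus and cortex sums, the log2 levels of RTS0065961 and RTS0071061 had a Pearson r of 0.73 and the other 5 pairs 0.18 to 0.47. These sums share mice, plates and depth, and the correlations are a description.

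By the rule for likeness, the probes closest to the mean profile of the 4 were RTS0066035 (r = 0.847 over 27 sums) and RTS0077533 (r = 0.818). Neither was called in the fimbria contrast, with edgeR adjusted p = 0.0784 and 0.0989. Of the 20 most alike probes 6 were called higher there, beside 21 of 866 tested (2.42%). The 27 sums include the fimbria sums of that contrast, so likeness and call are not independent. The 862 tested probes outside the set had a median r of 0.10 with that profile, and 95% of them lay below 0.59. RTS0066035 held 1.48 ± 0.249 per 10000 in fimbria IBA1 and 1.10 ± 0.231 in fimbria SYTO83 sums (SD, n = 5 mice each), and RTS0077533 held 1.22 ± 0.413 and 0.972 ± 0.261. Both are less abundant than RTS0065961 and RTS0068591, and both codes stand without a gene name here.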

How the data were processed

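The authors processed reads with GeoMx NGS Pipeline 2.3.3.10, per the file headers; it aligns reads to probe tags and collapses them by molecular identifier. The deposited values are the resulting whole-number counts per probe and segment, with no normalization; the submitters' processing notes name GRCm39. For 36 of 143 segments the layout of the file kept the count column from being checked by name (listed as another unit), and all their deposited values were whole numbers as well. Headers also gave raw and aligned reads. No segments had identical counts.

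Segments with at least 1000 counts and 50% saturation were summed by mouse, region and mask, and sums of at least 5000 counts were tested, so the mouse is the replicate. Tests used edgeR 4.0.16 in R 4.3.3 (quasi-likelihood F test, TMM, filterByExpr with a minimum count of 10, mouse as block, Benjamini-Hochberg over all tested probes, threshold 0.05). Fits held 27 IBA1 and SYTO83 sums with 866 probes, and 28 IBA1, double-masked and Galectin-3 sums with 237 probes, of which 3 are members. The SE is the log2 difference over the root of F, and intervals of differences span 1.96 SE. Shares have exact Clopper-Pearson intervals at 95%, and a count of 0 allows up to 3 counts. Neither covers more than counting error. Mouse numbers pair the samples because a mouse gave all its masks. The members, the rule for named probes (the 4 and the 2 most alike) and the tests were chosen with earlier results of these data known. Alternatives used DESeq2 1.42.0 and limma 3.58.1, other filters and scalings, plate terms and single mice left out. Gene lists and cell type markers could not be applied to codes.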

Additional observations from a re-analysis of the deposited data

Results flagged for a closer look

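Among the shares per mouse, 5 of 28 groups held a mouse far from the others by Dixon's criterion, where chance gives about 1 in 20. That rate is for independent values of equal spread, while these sums differ in depth and share mice, so the 2 cannot be compared directly. RTS0071061 stood at 2.87 per 10000 in fimbria IBA1 area of N101, the other mice lying between 0.725 and 1.34. RTS0065961 stood low in double-masked fimbria of N111, at 2.33 against 4.32 to 4.67, on 8 counts. RTS0068591 was at 0 in double-masked fimbria of N112, a sum of 9039 counts, against 2.17 to 2.91. RTS0068370 was high in N112 in hippocampus IBA1 area, at 2.13 against 0.837 to 1.09 (5 counts), and in hippocampus SYTO83 area, at 1.27 against 0.497 to 0.705 (2 counts).

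Data outside the comparisons held the probes too. Galectin-3 segments of the hippocampus held 2.95 per 10000 of RTS0065961 (7 of 23695 counts, exact interval 1.19 to 6.09). The 21 segments below the minimums, those labelled AC among them, had 26397 counts in all. They held 4.55 per 10000 of RTS0065961, 2.65 of RTS0068591, 2.65 of RTS0071061 and 3.79 of RTS0068370, on 12, 7, 7 and 10 counts, above the 1.14 that a count of 0 allows. A single Galectin-3 fimbria segment of N101, with 14541 counts, held 9, 3, 7 and 6 of these, and the other 20 segments held 3, 4, 0 and 4 in 11856 counts, where a 0 allows up to 2.53 per 10000.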

How the results depend on the processing

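No member that could be tested was called in the hippocampus under 18 alternatives, or between Galectin-3 and double-masked fimbria under 17. In the hippocampus 2 members were tested with only the groups compared and on plate B, and 16 alternatives tested all 4. For Galectin-3, the same settings tested RTS0065961 alone, and 15 tested RTS0068591 and RTS0068370. In the cortex 1 was called with only the groups compared and 1 with the aligned share as a covariate, and 0 under the other 15. Between fimbria and hippocampus under the double mask, 2 were called with plate A alone, with plate added to the block and without N111. There, 1 was called with segments as observations, and 0 with DESeq2, total counts, no count filter, only the groups compared (which tested RTS0065961 alone) or the aligned share as a covariate. Without the replicate block (mouse) 0 were called there as well, and the block changed no other count. Leaving out each mouse gave 0 to 2. No value could be had for this comparison at 75% aligned, at the stricter minimums or on plate B, nor for the cortex on plate B. Small differences changed sign. In the hippocampus RTS0068591 was -0.0135 with total counts, -0.26 at 75% aligned, -0.00559 in areas with both masks and -0.0687 to 0.30 with a mouse left out, and RTS0071061 was -0.27 at 75% aligned. As share differences these 2 were -0.57 and -0.000667 at 75% aligned, and RTS0068591 ran from -0.379 to 0.492 with a mouse left out. In the cortex RTS0065961 was -0.0573 with total counts, -0.0594 without the count filter and -0.0187 to 0.49 with a mouse left out. For Galectin-3 minus double mask, RTS0065961 was 0.34 with only the groups compared, 0.00571 without the replicate block, 0.47 on plate B and -0.42 to 0.16 with a mouse left out. RTS0068591 was -0.30 without the count filter, -0.25 at 75% aligned, -0.10 with plate in the block, -0.35 on plate A and -0.58 to 0.75 with a mouse left out. RTS0068370 was 0.0653 with the aligned share as a covariate, -2.03 at 75% aligned and -0.69 to 0.84 with a mouse left out. The causes were not tested. Depth limits the double-masked hippocampus, with 2 to 8 counts per probe.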
